A study of Homo sapiens with 18 samples.

Results

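Genes of glycolysis and of the hypoxia response were followed across the loss of each NF-kB subunit in GM12878, a human B-lymphoblastoid line transformed by Epstein-Barr virus. They were chosen as the rows of the deposited table whose symbol is among 40 names of glycolytic enzymes, pyruvate dehydrogenase and its kinases, hypoxia-inducible factor (HIF) components and hypoxia-response genes, with a mean normalised read count of at least 10 over the 18 libraries. The rule found 36 genes of 17155 in the table and of 12381 with such a mean. ADM and CA9 had a row but a mean under 10, ERO1A was listed under its older symbol and was not counted, and BNIP3 is not analysed here.

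All 6 groups were GM12878 with the genotype label wild-type LMP1, transduced with lentivirus carrying a guide and kept in puromycin at 3 µg/ml for 5 days. The control carried a non-targeting guide. The others carried guides against RelA (gene RELA), cRel (REL), RelB (RELB), p50 (NFKB1) or p52 (NFKB2) for stable knockout, checked by immunoblot per the labels' protocols, and each group had 3 libraries of polyadenylated RNA. The labels call the libraries of a group biological replicates without saying whether they came from separate cultures, so the tests speak only of the spread among these libraries.

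Glycolysis splits glucose into pyruvate, and lactate dehydrogenase turns the pyruvate into lactate where it is not burned in mitochondria. HIF is made of an oxygen-labile alpha subunit (HIF1A) and a stable beta subunit (ARNT). Prolyl hydroxylases such as EGLN1 mark the alpha subunit for destruction while oxygen is present. When it accumulates, HIF binds the letters ACGTG or GCGTG near its targets, which include glycolytic isoenzymes, PDK1, VEGFA and its own hydroxylases. B-lymphoblastoid cells grow fast and run glycolysis in normal oxygen, and MYC, which binds the overlapping letters CACGTG, acts on many of the same enzyme genes.

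The windows of 250 bases before the start site are shown for ALDOC, ENO2, P4HA1 and PFKFB4, which had some of the highest fold changes below, and for LDHA, which is a textbook HIF target and was lower in several groups. They come from RefSeq on GRCh38.p14, read 5′ to 3′ on the gene's strand, and capitals mark each ACGTG or GCGTG on either strand.
ALDOC, chr17:28576896-28577145, minus strand: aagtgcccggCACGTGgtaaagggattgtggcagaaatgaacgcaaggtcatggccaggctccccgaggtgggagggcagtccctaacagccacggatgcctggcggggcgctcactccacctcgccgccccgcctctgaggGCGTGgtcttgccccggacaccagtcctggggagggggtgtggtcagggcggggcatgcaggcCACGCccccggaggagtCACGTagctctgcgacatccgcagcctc
ENO2, chr12:6914330-6914579, plus strand: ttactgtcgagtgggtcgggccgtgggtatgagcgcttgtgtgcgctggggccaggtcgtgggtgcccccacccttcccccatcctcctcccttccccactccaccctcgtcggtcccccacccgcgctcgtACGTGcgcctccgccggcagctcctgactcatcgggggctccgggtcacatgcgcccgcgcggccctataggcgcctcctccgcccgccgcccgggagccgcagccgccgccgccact
P4HA1, chr10:73096867-73097116, minus strand: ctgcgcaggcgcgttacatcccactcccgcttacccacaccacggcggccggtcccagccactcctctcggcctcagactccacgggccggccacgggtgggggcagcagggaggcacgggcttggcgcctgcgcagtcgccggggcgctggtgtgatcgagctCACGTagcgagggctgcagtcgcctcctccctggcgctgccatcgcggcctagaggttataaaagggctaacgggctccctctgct
PFKFB4, chr3:48556804-48557053, minus strand: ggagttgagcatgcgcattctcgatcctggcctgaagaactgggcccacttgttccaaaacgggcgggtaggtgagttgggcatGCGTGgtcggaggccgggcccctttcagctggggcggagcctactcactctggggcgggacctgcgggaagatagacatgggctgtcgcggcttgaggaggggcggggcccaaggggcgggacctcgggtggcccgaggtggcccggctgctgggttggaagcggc
LDHA, chr11:18394313-18394562, plus strand: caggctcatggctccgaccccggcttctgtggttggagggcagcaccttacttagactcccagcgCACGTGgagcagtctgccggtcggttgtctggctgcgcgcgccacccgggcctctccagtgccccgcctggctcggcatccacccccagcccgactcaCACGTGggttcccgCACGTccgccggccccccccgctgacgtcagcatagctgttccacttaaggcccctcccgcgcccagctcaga
The ALDOC and LDHA windows shown each held 5 matches and the ENO2, P4HA1 and PFKFB4 windows 1 each, where a CACGTG counts as 2 because it reads ACGTG on both strands. LDHA had 2 windows, and the one with more matches is shown. The other LDHA window held 1 match. Among all 35116 windows of this length in the table, 43.2% held at least 1 match. The table had 32 of the 36 genes with 56 windows, of which 57.1% held a match. These are letter matches only, and occupancy by any factor was not measured.

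Recovered depth was 15.2 to 37.5 M reads per library. The targeted transcript was checked first. NFKB1 was 4748, 4666 and 4640.4 in p50-knockout cells against 7418, 6895 and 6885 in the controls (log2 fold change -0.59, adjusted p = 3.1e-07), NFKB2 was 6508, 6171 and 6281 in p52-knockout cells against 8578, 8698 and 8422 (log2 fold change -0.44, adjusted p = 1.5e-06), and RELA was 1403, 1369.6 and 1332 in RelA-knockout cells against 2237, 2175 and 2212 (log2 fold change -0.69, adjusted p = 2.6e-07). All of these knockout libraries lay below their controls. REL was 1298, 1315 and 1282 in the libraries labelled cRel knockout against 1554, 1717 and 856, which overlap (log2 fold change -0.02, adjusted p = 0.96). That overlap rests on control 3 (856), and every cRel-labelled library lay below controls 1 and 2. RELB was 4218, 4192 and 3911 in the libraries labelled RelB knockout against 3422, 3137 and 3399.7, all above the controls (log2 fold change 0.31, adjusted p = 1.7e-04). The last 2 groups are therefore called cRel-labelled and RelB-labelled, and the direction of every change in them rests on a label that the transcript does not show. Control 3, p52 3 and RelA 2 had the most negative correlations with transcript length of their deviations from the group mean (Spearman's rho across genes -0.45, -0.38 and -0.31). Other libraries went the opposite way, and control 2, at 0.36, was larger in size than RelA 2. Calls lost without control 3, p52 3 and RelA 2 are given below. All 9 B-cell markers examined (MS4A1, PAX5, CD79A and others) were measured, with a summed level of 113706 to 153825. Markers of other cell types were not all near 0. CD3D stayed at or below 1.63, CD14 at 3.16 and CD68 at 2.59, but NKG7 reached 702, CSF1R 758 and ITGAM 267 in the T- and NK-cell and monocyte lists, and the fibroblast gene COL1A1 reached 1570.4.

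Values below are deposited normalised read counts, listed for libraries 1, 2 and 3, or as mean ± SD with n = 3. Log2 fold changes and their standard errors (SE) come from limma on log2(value + 1), and a gene is said to have risen or fallen where its Benjamini-Hochberg adjusted p over all 12381 genes was under 0.05. These are bulk libraries, so a change in all cells and a change in a fraction of them cannot be told apart. The 5 comparisons with the control share the same 3 control libraries.

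The p50, p52 and RelB-labelled groups had the most changes among the 36 genes, as they did among all 12381 genes tested (4539, 6295 and 8391 called). In p50-knockout cells 13 genes rose (36.1%, against 17.0% of all genes tested) and 4 fell (11.1%, against 19.6%). In p52-knockout cells 16 rose (44.4%, against 24.5%) and 3 fell (8.33%, against 26.4%), and in the RelB-labelled group 15 rose (41.7%, against 33.1%) and 6 fell (16.7%, against 34.7%). The other pair of groups had few changes, also among all genes (687 called in RelA-knockout cells and 754 in the cRel-labelled group). Among RelA-knockout cells only HIF1A rose (2.78% of the genes, against 2.92% of all genes) and 5 fell (13.9%, against 2.63%). In the cRel-labelled group 4 fell (11.1%, against 1.92%) and 0 rose by limma (against 4.17%), with 0 higher at an unadjusted p under 0.05, by edgeR and by DESeq2.

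The median log2 fold change over the 36 genes was 0.06 in p50-knockout cells, 0.16 in p52-knockout cells, 0.10 in the RelB-labelled group, -0.13 in RelA-knockout cells and -0.08 in the cRel-labelled group. Over all genes it lay between -0.02 and 0.00. Counts of genes that fell were small and moved when 1 library was left out. In the cRel-labelled group the count of 4 became 1 without control 1, control 3, cRel-labelled 1 or cRel-labelled 2 and 2 without cRel-labelled 3. In p50-knockout cells the count of 4 became 2 without control 1 or control 3 and 1 without p50 2, and in p52-knockout cells the count of 3 became 0 without control 1 or p52 2, 1 without control 3 and 5 without control 2. For the RelA knockout the count of 5 became 1 without control 1, 10 without control 2 and 3 without any 1 of the RelA libraries, and HIF1A was not called without control 1, control 3, RelA 1 or RelA 3. For the falls in RelA-knockout cells edgeR gave a count of 3 and DESeq2 of 11. By edgeR the falls of PGK1 and BNIP3L in RelA-knockout cells, HIF1A in p50-knockout cells, PDHA1 in p52-knockout cells, TPI1 in the RelB-labelled group and ANKRD37 in the cRel-labelled group did not pass.

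**Figure D1:**
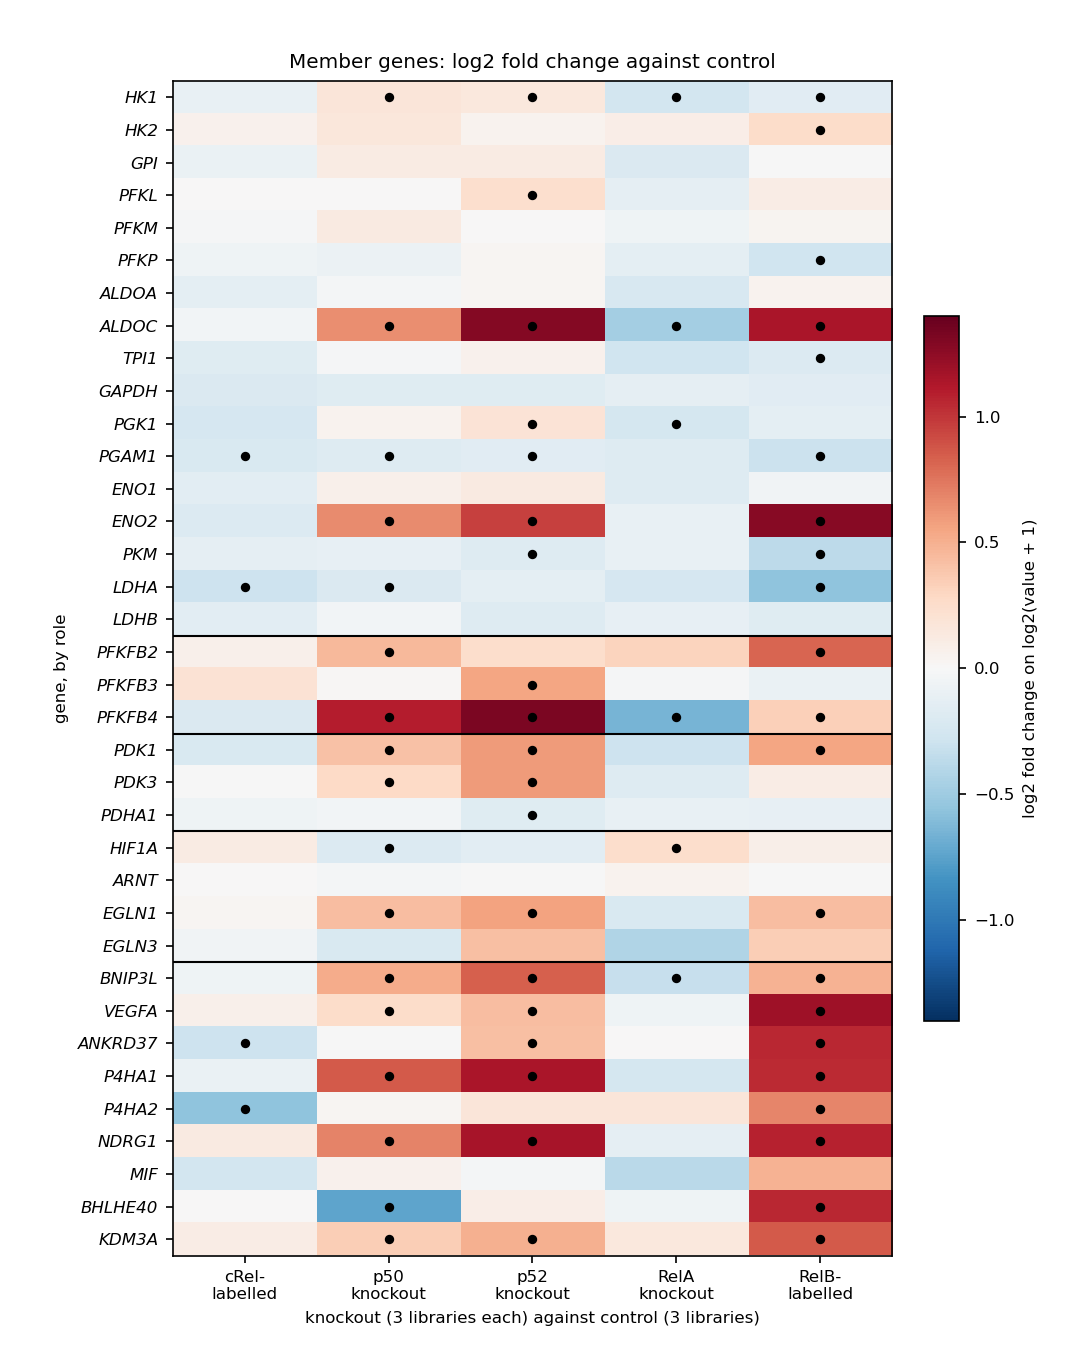
Log2 fold change of each of the 36 genes (rows, in blocks by role) in each knockout group against the control (columns, 3 libraries each), with red for higher and blue for lower. Dots mark an adjusted p under 0.05 by limma; ALDOC, ENO2, PFKFB4, P4HA1 and NDRG1 are red in the p50, p52 and RelB-labelled columns, while most of the top block is pale.

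Glycolytic enzymes split by isoenzyme. The minor isoenzymes aldolase C and enolase 2 rose in the p50, p52 and RelB-labelled groups, while every other enzyme had a log2 fold change between -0.56 (LDHA) and 0.25 (HK2), both in the RelB-labelled group. Of the 17 enzymes, 3 rose (against 17.0% of all genes) and 2 fell (against 19.6%) in p50-knockout cells, 5 rose (against 24.5%) and 2 fell (against 26.4%) in p52-knockout cells, and 3 rose (against 33.1%) and 6 fell (against 34.7%) in the RelB-labelled group. The share of rises in p50-knockout cells and of falls in the RelB-labelled group was thus near that of all genes. Of the same enzymes 3 fell in RelA-knockout cells (against 2.63% of all genes) and 2 in the cRel-labelled group (against 1.92%). These counts depended on the tool. In RelA-knockout cells 2 fell by edgeR, 9 by DESeq2 and 10 at an unadjusted limma p under 0.05, with a median log2 fold change of -0.18. In the cRel-labelled group the same counts were 2, 3 and 5, with a median of -0.14. Per kilobase of exon, the control means of the enzymes ran from 27832 for GAPDH and 18345 for ENO1 down to 411 for PFKM, with ALDOC at 615 and ENO2 at 492. GAPDH, ENO1, PGK1, PGAM1, LDHA and other enzymes of this set have processed pseudogenes, and it is unknown here how reads with several matches were counted, so their levels carry that uncertainty.

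ALDOC, the aldolase best known from brain, was 2159, 1404 and 1841 in the control libraries. It was 2506, 2857 and 3017 in p50-knockout cells, 4402, 4288 and 4303 in p52-knockout cells and 4215, 3644 and 3903 in the RelB-labelled libraries. All 9 of those values lay above the highest control, and the p52 and RelB-labelled values lay above the p50 values too. The rise was 1.57-fold in p50-knockout cells (log2 fold change 0.65, SE 0.11, adjusted p = 6.4e-05), 2.44-fold in p52-knockout cells (log2 fold change 1.29, SE 0.11, adjusted p = 3.9e-09) and 2.21-fold in the RelB-labelled group (log2 fold change 1.14, SE 0.11, adjusted p = 3.4e-09). ALDOC in RelA-knockout cells was 1281, 1186 and 1349, below every control. It fell there (log2 fold change -0.48, SE 0.11, adjusted p = 0.0065), though the adjusted p was 0.061 leaving out control 1, the control with the highest value. The cRel-labelled libraries, at 1604, 1749 and 1848, overlapped the controls (log2 fold change -0.04, SE 0.11, adjusted p = 0.88).

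ALDOA, the main aldolase of these cells, was 36213 ± 3302 in the control and passed the test in no group by limma. Its log2 fold change ran from -0.22 in RelA-knockout cells to 0.05 in the RelB-labelled group. As a share of the summed ALDOA and ALDOC counts per kilobase, ALDOC was 7.26%, 5.44% and 5.92% in the controls. It made up 9.53% ± 1.12 in p50-knockout cells, 13.6% ± 0.253 in p52-knockout cells and 12.3% ± 1.12 in the RelB-labelled group. It was 5.22% ± 0.611 in RelA-knockout cells and 6.62% ± 0.527 in the cRel-labelled group, both within or overlapping the control range.

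ENO2, the enolase of neurons and a textbook HIF target, had the smallest p of the 36 genes in the test for differences among the 5 knockouts. It was 2254, 1874 and 2194 in the controls, 2964, 3524 and 3498 in p50-knockout cells, 3909, 4242 and 4071 in p52-knockout cells and 5067, 4997 and 5182 in the RelB-labelled libraries. These 4 groups did not overlap, and the order control, p50, p52, RelB-labelled held for every library. In the p50, p52 and RelB-labelled groups the rise was 1.58-fold (log2 fold change 0.66, SE 0.08, adjusted p = 1.5e-06), 1.94-fold (log2 fold change 0.95, SE 0.08, adjusted p = 2.8e-09) and 2.42-fold (log2 fold change 1.27, SE 0.08, adjusted p = 3.8e-12). For RelA (1984, 1856 and 2031) and the cRel-labelled group (1698, 1974 and 1850.1) the values overlapped the controls, with log2 fold changes of -0.10 and -0.19 that did not pass the test. The major enolase ENO1 stood at 96787 ± 7603 in the control, the highest count of any enzyme here, and passed the test in no group. ENO2 was 2.68%, 2.56% and 2.60% of the summed enolase counts per kilobase in the controls and 6.14%, 6.22% and 6.48% in the RelB-labelled libraries.

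**Figure D2:**
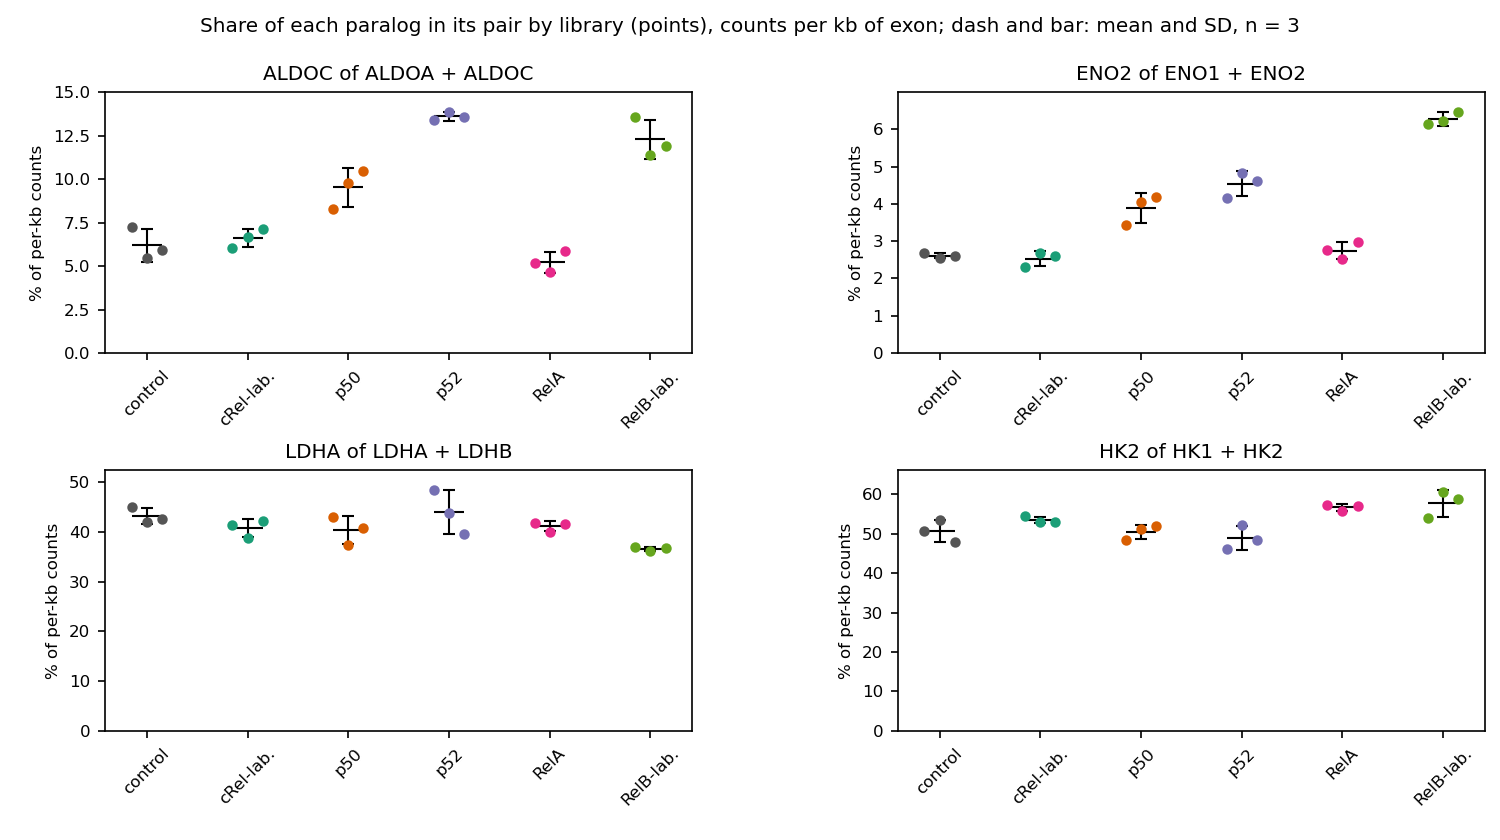
Share (in %) of the summed counts per kilobase of exon that ALDOC, ENO2, LDHA and HK2 take within their isoenzyme pair, by library (points) with the mean and SD of each group (n = 3). The ALDOC and ENO2 shares stand above the controls in the p50, p52 and RelB-labelled groups, and the LDHA share is lowest in the RelB-labelled group.

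LDHA, which makes lactate from pyruvate, went the other way. It was 48262, 41624 and 49467 in the controls and 31101, 30028 and 32981 in the RelB-labelled libraries, with no overlap. It fell 1.48-fold there (log2 fold change -0.56, SE 0.07, adjusted p = 3.4e-07). In the cRel-labelled group it was 37631, 37900.3 and 38356, also below every control (log2 fold change -0.29, SE 0.07, adjusted p = 0.014), and the adjusted p was 0.057 leaving out cRel-labelled 1, 0.055 leaving out cRel-labelled 2, 0.066 leaving out control 1 and 0.086 leaving out control 3. In p50-knockout cells it was 41841, 38485 and 40297, and its highest library overlapped the lowest control (log2 fold change -0.20, SE 0.07, adjusted p = 0.027, with an adjusted p of 0.097 leaving out control 1, 0.12 leaving out control 3, 0.10 leaving out p50 2 and 0.062 leaving out p50 3). LDHB, the subunit that favours the return from lactate to pyruvate, was 29305 ± 2367 in the control and passed the test in no group. LDHA took 43.2% ± 1.67 of the summed LDHA and LDHB counts per kilobase in the control and 36.6% ± 0.440 in the RelB-labelled group.

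PKM, pyruvate kinase, makes the last ATP of glycolysis. It was 60425, 55505 and 63653 in the controls, 45612, 46926 and 46738 in the RelB-labelled libraries and 54244, 51418 and 53083 in p52-knockout cells, both entirely below the controls. It fell in the RelB-labelled group (log2 fold change -0.36, SE 0.07, adjusted p = 3.9e-05) and in p52-knockout cells (log2 fold change -0.18, SE 0.07, adjusted p = 0.028, with an adjusted p of 0.073 leaving out control 1, 0.13 leaving out control 3 and 0.10 leaving out p52 2). PGAM1, phosphoglycerate mutase, was 5237, 4917 and 5624 in the controls and below them in every library of every other group. It fell most in the RelB-labelled group, where it was 4137, 4238 and 4430.4 (log2 fold change -0.30, SE 0.06, adjusted p = 1.2e-04). The smaller falls were log2 fold change -0.21, SE 0.06, adjusted p = 0.035 in the cRel-labelled group, log2 fold change -0.18, SE 0.06, adjusted p = 0.018 in p50-knockout cells and log2 fold change -0.16, SE 0.06, adjusted p = 0.026 in p52-knockout cells. Its log2 fold change of -0.18 in RelA-knockout cells had an adjusted p of 0.071. Those 3 smaller falls depended on single libraries, with adjusted p of 0.11 leaving out cRel-labelled 1, 0.12 leaving out cRel-labelled 2, 0.079 leaving out cRel-labelled 3, 0.073 leaving out control 1 and 0.19 leaving out control 3 in the cRel-labelled group, 0.096 leaving out control 3 and 0.11 leaving out p50 2 in p50-knockout cells and 0.052 leaving out control 1, 0.14 leaving out control 3, 0.078 leaving out p52 2 and 0.067 leaving out p52 3 in p52-knockout cells.

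Hexokinases trap glucose in the cell, and phosphofructokinase commits it to glycolysis. HK1 was 3663, 3359.7 and 3495 in the controls, and it was higher in every p50 library (4084, 3935 and 3807) and lower in every RelA (2978, 2956 and 2843) and RelB-labelled (3100.0, 3065 and 3224) library. The p52 values (4187, 3824 and 3649.5) overlapped the controls. HK1 rose in the p50 (log2 fold change 0.17, SE 0.06, adjusted p = 0.032) and p52 (log2 fold change 0.15, SE 0.06, adjusted p = 0.046) knockouts and fell in the RelA (log2 fold change -0.26, SE 0.06, adjusted p = 0.010) and RelB-labelled (log2 fold change -0.16, SE 0.06, adjusted p = 0.021) groups. All 4 calls were lost on leaving out single libraries. The adjusted p was 0.12 leaving out control 2, 0.061 leaving out control 3, 0.10 leaving out p50 1 and 0.068 leaving out p50 2 in p50-knockout cells, 0.16 leaving out control 2, 0.078 leaving out control 3, 0.24 leaving out p52 1 and 0.072 leaving out p52 2 in p52-knockout cells, 0.056 leaving out RelA 3 and 0.064 leaving out control 1 in RelA-knockout cells, and 0.054 leaving out RelB-labelled 1, 0.067 leaving out RelB-labelled 2 and 0.094 leaving out control 1 in the RelB-labelled group. HK2, the isoenzyme counted as a HIF target, was 3624, 3717 and 3085 in the controls and 3504, 4547 and 4424 in the RelB-labelled libraries, which overlapped them. It passed there (log2 fold change 0.25, SE 0.09, adjusted p = 0.016), with an adjusted p of 0.10 leaving out RelB-labelled 2, 0.081 leaving out RelB-labelled 3 and 0.11 leaving out control 3.

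The platelet-type phosphofructokinase PFKP was 8508, 8099 and 8709.8 in the controls and 7097, 6999 and 6690.5 in the RelB-labelled libraries, all lower. It fell there (log2 fold change -0.28, SE 0.06, adjusted p = 4.2e-04), and its value under quantile normalisation of the libraries was -0.10 and did not pass. The liver type PFKL was 12881, 11648 and 12439.7 in the controls and rose in p52-knockout cells to 15807, 13891 and 13733 (log2 fold change 0.23, SE 0.07, adjusted p = 0.0063, with an adjusted p of 0.051 leaving out p52 1). The muscle type PFKM passed in no group, with log2 fold changes from -0.06 to 0.13. PGK1, phosphoglycerate kinase, rose in p52-knockout cells (log2 fold change 0.19, SE 0.07, adjusted p = 0.031) and fell in RelA-knockout cells (log2 fold change -0.24, SE 0.07, adjusted p = 0.049). The adjusted p for PGK1 was 0.21 leaving out control 2 and 0.13 leaving out p52 1 in p52-knockout cells and 0.13 leaving out RelA 1, 0.13 leaving out RelA 2, 0.082 leaving out RelA 3, 0.21 leaving out control 1 and 0.15 leaving out control 3 in RelA-knockout cells. TPI1, triose phosphate isomerase, fell in the RelB-labelled group (log2 fold change -0.20, SE 0.09, adjusted p = 0.048), where the values overlapped the controls, edgeR and DESeq2 did not call it and the adjusted p was 0.093 leaving out RelB-labelled 1, 0.12 leaving out RelB-labelled 2, 0.064 leaving out RelB-labelled 3, 0.14 leaving out control 1 and 0.24 leaving out control 3. GPI and GAPDH passed the test in no group by limma, with log2 fold changes from -0.20 to 0.12 for GPI and from -0.20 to -0.13 for GAPDH.

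**Figure D3:**
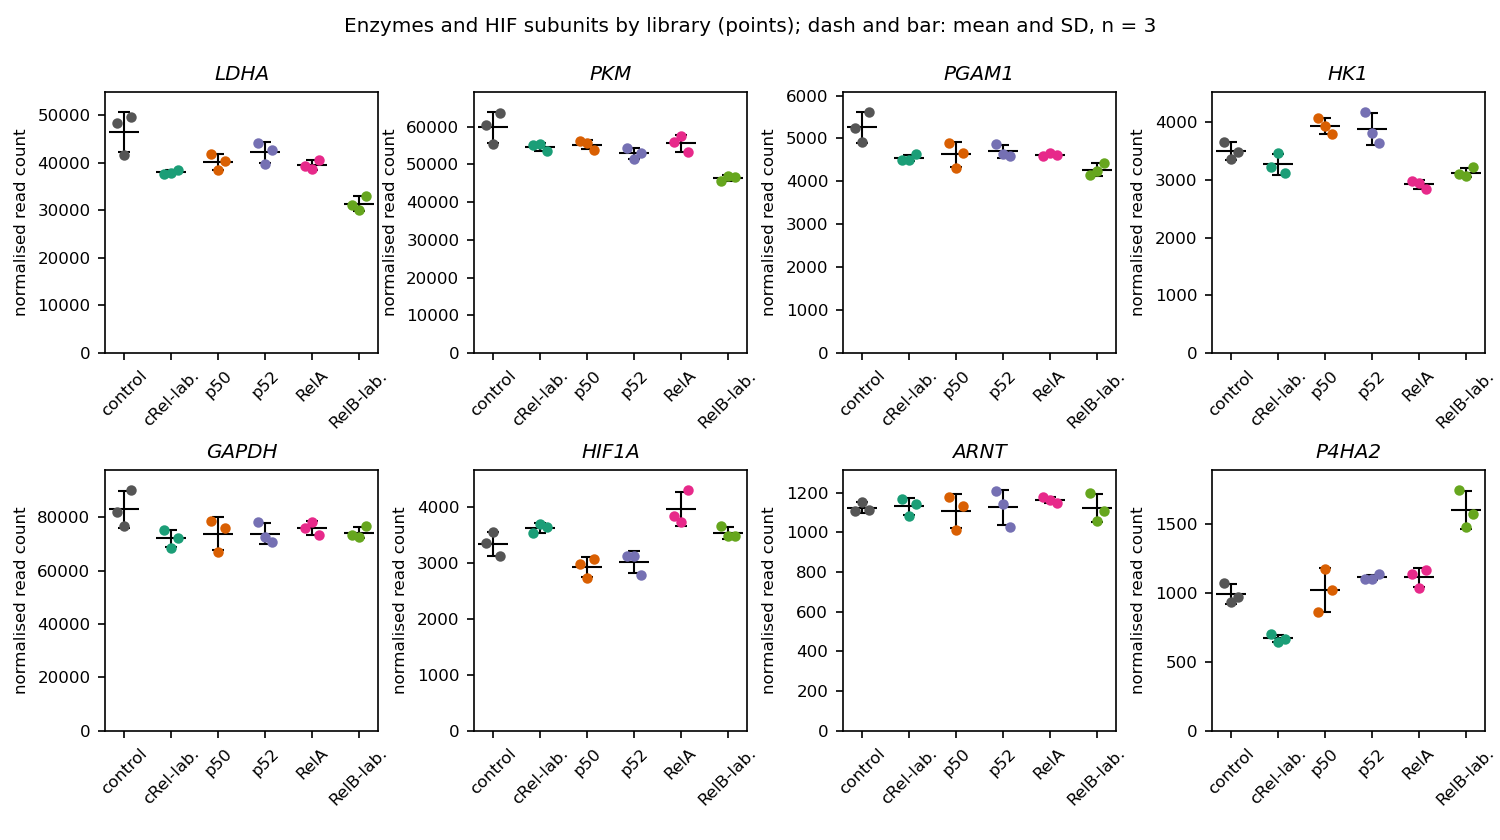
Normalised read counts of abundant glycolytic enzymes, HIF subunits and P4HA2 by library (points) with the mean and SD of each group (n = 3). LDHA and PKM are lowest in the RelB-labelled libraries, P4HA2 is lowest in the cRel-labelled ones, and ARNT is level across groups.

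The PFKFB enzymes make and break down fructose 2,6-bisphosphate, the strongest activator of phosphofructokinase. PFKFB4 was 949, 661 and 672 in the controls, 1456, 1689.6 and 1672 in p50-knockout cells and 1766, 2126 and 1749 in p52-knockout cells. Every p50 and p52 library lay above every control. It rose 2.13-fold in p50-knockout cells (log2 fold change 1.09, SE 0.12, adjusted p = 4.7e-07) and 2.49-fold in p52-knockout cells (log2 fold change 1.32, SE 0.12, adjusted p = 9.4e-09), the highest fold of any of the 36 genes in each. PFKFB4 in RelA-knockout cells was 546, 438 and 455, below every control, and it fell (log2 fold change -0.65, SE 0.12, adjusted p = 0.0011). In the RelB-labelled group it was 891, 896 and 1051, overlapping control 1. It passed the test there (log2 fold change 0.33, SE 0.12, adjusted p = 0.015), with an adjusted p of 0.090 leaving out RelB-labelled 3, 0.097 leaving out control 2 and 0.081 leaving out control 3.

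PFKFB2 was a low-count gene at 165, 173 and 141 in the controls. It rose in p50-knockout cells (234, 226 and 198; log2 fold change 0.46, SE 0.13, adjusted p = 0.0076) and in the RelB-labelled group (276, 300.2 and 266; log2 fold change 0.81, SE 0.13, adjusted p = 7.9e-06), with no overlap with the controls in either. PFKFB3, the form with the strongest kinase side, was 5527, 5063 and 4354 in the controls and rose in p52-knockout cells to 8200.2, 7384 and 6390.5, all above (log2 fold change 0.56, SE 0.10, adjusted p = 9.6e-05). Its log2 fold change was 0.02 in p50-knockout cells and -0.10 in the RelB-labelled group. Of the summed PFKFB2, PFKFB3 and PFKFB4 counts per kilobase, PFKFB4 was 13.0% ± 1.55 in the control, 23.8% ± 1.73 in p50-knockout cells and 8.72% ± 0.521 in RelA-knockout cells.

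PDK1 and PDK3 are kinases that switch off pyruvate dehydrogenase and so keep pyruvate out of mitochondria. PDK1 was 1511, 1205 and 1141 in the controls, 1586, 1729 and 1786 in p50-knockout cells, 1945, 1936 and 1889 in p52-knockout cells and 1944, 1741 and 1938 in the RelB-labelled libraries. All 9 of these libraries lay above the highest control. PDK1 rose in all 3 groups (log2 fold change 0.41, SE 0.09, adjusted p = 0.0016 in p50, log2 fold change 0.59, SE 0.09, adjusted p = 1.8e-05 in p52 and log2 fold change 0.55, SE 0.09, adjusted p = 2.0e-05 in RelB-labelled). PDK3 was 763, 681 and 626 in the controls and rose in p50-knockout cells (854, 771 and 881; log2 fold change 0.28, SE 0.08, adjusted p = 0.0087) and the p52 knockout (1062, 1007 and 1045; log2 fold change 0.59, SE 0.08, adjusted p = 2.1e-06), in both above every control. The p50 call for PDK3 had an adjusted p of 0.058 leaving out control 3. PDHA1, the catalytic subunit they act on, was 3356, 3136 and 3644 in the controls and 2761, 2949 and 3306 in p52-knockout cells, which overlap. It fell there (log2 fold change -0.17, SE 0.07, adjusted p = 0.040), but it did not pass by edgeR or DESeq2 and the adjusted p was 0.070 leaving out control 1, 0.19 leaving out control 3, 0.21 leaving out p52 1 and 0.11 leaving out p52 2.

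Transcripts of HIF1A and ARNT had small log2 fold changes. HIF1A was 3353, 3541 and 3112 in the controls, 2980.4, 2730.3 and 3065 in p50-knockout cells and 3840.2, 3722 and 4305 in RelA-knockout cells. All p50 libraries were below the controls and all RelA libraries above them. It fell in p50-knockout cells (log2 fold change -0.19, SE 0.07, adjusted p = 0.032) and rose in RelA-knockout cells (log2 fold change 0.25, SE 0.07, adjusted p = 0.032). The adjusted p for HIF1A was 0.070 leaving out control 1, 0.14 leaving out control 2 and 0.16 leaving out p50 2 in p50-knockout cells and 0.062 leaving out RelA 1, 0.20 leaving out RelA 3, 0.079 leaving out control 1 and 0.16 leaving out control 3 in RelA-knockout cells. ARNT, its partner, was 1125 ± 26.3 in the control and passed in no group, with log2 fold changes from -0.03 to 0.05. HIF protein was not measured.

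The oxygen-sensing hydroxylase EGLN1 is itself induced by HIF. It was 1255, 1159 and 1003 in the controls, 1454, 1612 and 1536 in p50-knockout cells, 1656, 1793 and 1570.3 in p52-knockout cells and 1327, 1663 and 1614 in the RelB-labelled libraries, all above the highest control. EGLN1 rose in each (log2 fold change 0.43, SE 0.08, adjusted p = 4.4e-04 in p50, log2 fold change 0.56, SE 0.08, adjusted p = 1.1e-05 in p52 and log2 fold change 0.43, SE 0.08, adjusted p = 1.3e-04 in RelB-labelled). EGLN3 had few counts at 37.5, 51.3 and 52.4 in the controls and passed in no comparison with the control, with log2 fold changes from -0.42 to 0.42.

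Most of the 9 other hypoxia-response genes rose in the RelB-labelled, p52 and p50 groups. In the RelB-labelled group 8 of the 9 rose (against 33.1% of all genes), with a median log2 fold change of 1.04 over the 9. In p52-knockout cells 6 rose (against 24.5%), and in p50-knockout cells 5 rose (against 17.0%) and 1 fell (against 19.6%). In RelA-knockout cells 1 fell (against 2.63%) and in the cRel-labelled group 2 fell (against 1.92%).

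P4HA1 encodes a collagen prolyl hydroxylase and is a textbook HIF target. It was 2026, 1434 and 1504 in the controls, 2331, 3429.7 and 3269 in p50-knockout cells, 3013, 3877 and 4040.5 in p52-knockout cells and 3055, 3297 and 3810.0 in the RelB-labelled libraries. No library of those 3 groups overlapped the controls. In that order, P4HA1 rose 1.81-fold (log2 fold change 0.86, SE 0.14, adjusted p = 5.1e-05), 2.21-fold (log2 fold change 1.14, SE 0.14, adjusted p = 5.1e-07) and 2.06-fold (log2 fold change 1.04, SE 0.14, adjusted p = 6.1e-07). Its paralog P4HA2 had another pattern. P4HA2 was 1073, 933 and 973 in the controls, 700.1, 646 and 668 in the cRel-labelled libraries, all lower, and 1751, 1478 and 1572 in the RelB-labelled libraries, all higher. It fell in the cRel-labelled group (log2 fold change -0.56, SE 0.09, adjusted p = 2.6e-04), the only one of the 4 falls there that held without any 1 library. It rose in the RelB-labelled group (log2 fold change 0.69, SE 0.09, adjusted p = 5.9e-07), and its log2 fold change was 0.03 in p50-knockout cells and 0.17 in p52-knockout cells.

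NDRG1, a stress- and hypoxia-induced gene, was 876, 647 and 639 in the controls, 1005, 1295 and 1167 in p50-knockout cells, 1541, 1699 and 1523 in p52-knockout cells and 1426, 1498 and 1577 in the RelB-labelled libraries. Every one of these knockout libraries was above the highest control. In the same order NDRG1 rose 1.61-fold (log2 fold change 0.69, SE 0.10, adjusted p = 2.8e-05), 2.22-fold (log2 fold change 1.15, SE 0.10, adjusted p = 1.2e-08) and 2.10-fold (log2 fold change 1.07, SE 0.10, adjusted p = 6.4e-09). BNIP3L, a receptor that marks mitochondria for removal, was 3555, 2631 and 2678 in the controls, and it was higher in every p50 (3973, 4390.3 and 4224), p52 (5184, 5144 and 5381) and RelB-labelled (4016, 3943 and 4394) library. It rose in all 3 (log2 fold change 0.52, SE 0.09, adjusted p = 1.8e-04 in p50, log2 fold change 0.84, SE 0.09, adjusted p = 1.8e-07 in p52 and log2 fold change 0.49, SE 0.09, adjusted p = 7.2e-05 in RelB-labelled). BNIP3L in RelA-knockout cells was 2449.7, 2042 and 2558, below every control (log2 fold change -0.32, SE 0.09, adjusted p = 0.041), and the adjusted p was 0.066 leaving out RelA 1, 0.18 leaving out RelA 2 and 0.23 leaving out control 1.

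VEGFA, the main growth factor for blood vessels, was 1196, 1121 and 1169 in the controls and 2400.1, 2795 and 2766 in the RelB-labelled libraries. Its RelB-labelled values were all above those of any other group. It rose 2.28-fold there (log2 fold change 1.19, SE 0.07, adjusted p = 1.4e-12), 1.34-fold in p52-knockout cells (1563, 1655 and 1474; log2 fold change 0.43, SE 0.07, adjusted p = 1.4e-05) and 1.19-fold in p50-knockout cells (1331, 1444 and 1380.4; log2 fold change 0.25, SE 0.07, adjusted p = 0.0048). ANKRD37, a small ankyrin-repeat gene induced by HIF, was 570.1, 538 and 582 in the controls, 1008, 1269.7 and 1265 in the RelB-labelled libraries and 693, 759 and 823 in p52-knockout cells, all higher. It rose in both (log2 fold change 1.06, SE 0.08, adjusted p = 2.9e-10 in RelB-labelled and log2 fold change 0.43, SE 0.08, adjusted p = 2.1e-04 in p52). In the cRel-labelled group it was 457, 460.2 and 459, all lower (log2 fold change -0.30, SE 0.08, adjusted p = 0.037), with an adjusted p of 0.10 leaving out cRel-labelled 1, 0.10 leaving out cRel-labelled 2, 0.11 leaving out cRel-labelled 3, 0.087 leaving out control 1 and 0.13 leaving out control 3.

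BHLHE40, a transcriptional repressor induced by hypoxia and by other signals, moved in opposite directions in the p50 and RelB-labelled groups. It was 3078, 3816 and 3797 in the controls, 2269, 1967 and 2135 in p50-knockout cells and 6891, 7759 and 7479 in the RelB-labelled libraries, with no overlap. It fell in p50-knockout cells (log2 fold change -0.74, SE 0.08, adjusted p = 8.2e-07) and rose in the RelB-labelled group (log2 fold change 1.05, SE 0.08, adjusted p = 2.1e-10). In p52-knockout cells its log2 fold change was 0.09 and in RelA-knockout cells -0.06, neither past the test. KDM3A, a histone demethylase induced by HIF, was 1163, 1032 and 896 in the controls and rose in the p50 (1178, 1367 and 1383; log2 fold change 0.35, SE 0.10, adjusted p = 0.011), p52 (1314, 1641 and 1397; log2 fold change 0.49, SE 0.10, adjusted p = 3.7e-04) and RelB-labelled (1603, 1935 and 2052; log2 fold change 0.85, SE 0.10, adjusted p = 1.9e-07) groups. All of these libraries were above the controls, and the p50 call had an adjusted p of 0.074 leaving out control 3 and 0.051 leaving out p50 3. MIF, a cytokine, had few counts at 38.6, 41.4 and 49.1 in the controls, and how reads in overlapping genes were counted is unknown here. It passed in no comparison with the control, with 59.8, 53.5 and 68.4 in the RelB-labelled libraries (log2 fold change 0.48, SE 0.22, adjusted p = 0.062). CA9, a HIF-induced carbonic anhydrase below the minimum, was 8.82, 2.96 and 3.23 in the controls and 24.8, 17.2 and 9.18 in the RelB-labelled libraries, which was not tested.

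**Figure D4:**
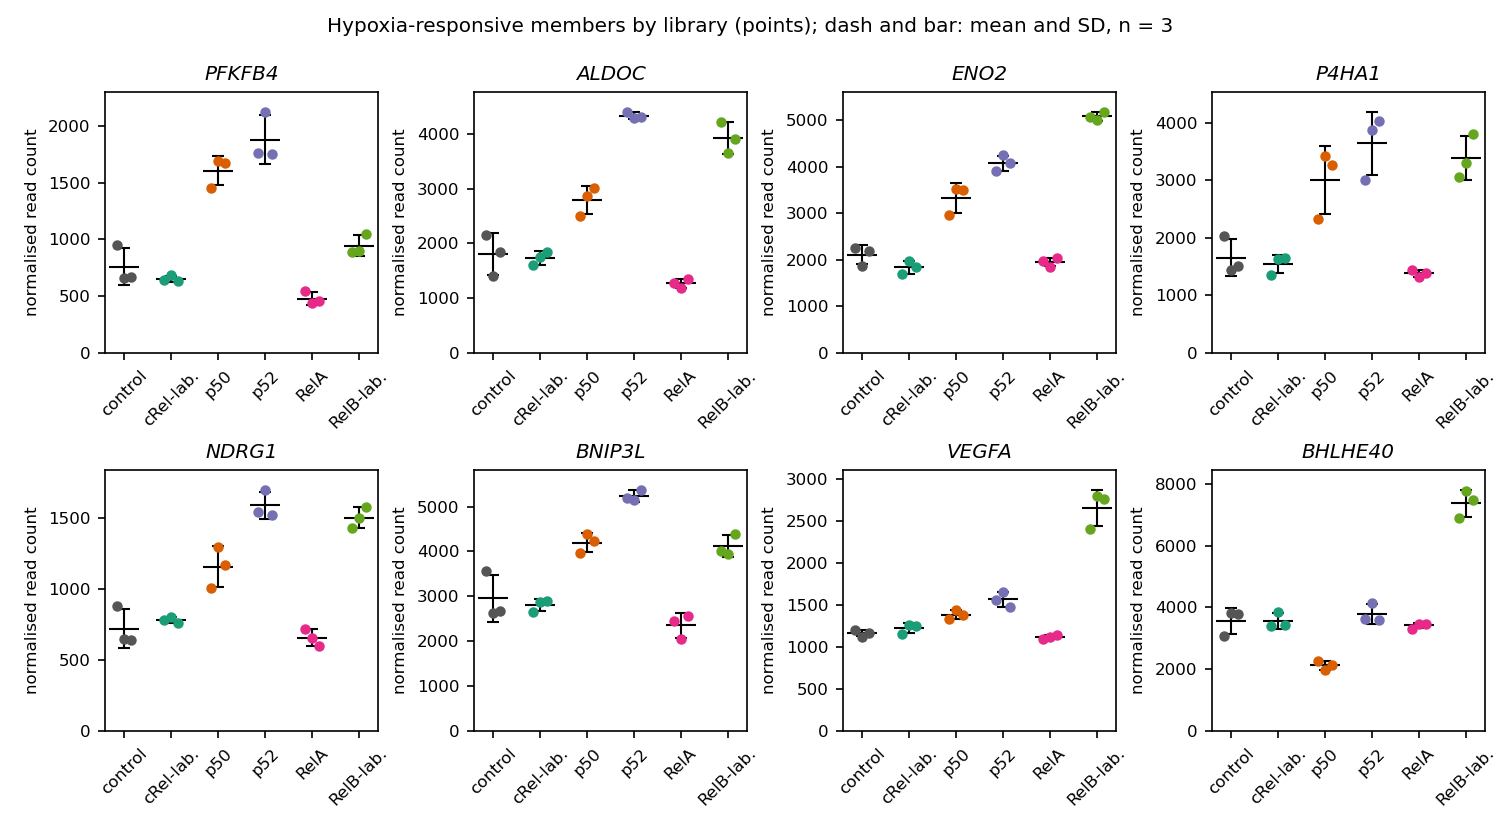
Normalised read counts of 8 hypoxia-responsive genes by library (points) with the mean and SD of each group (n = 3). PFKFB4, ALDOC, ENO2, P4HA1, NDRG1 and BNIP3L stand high in the p50 and p52 knockouts, VEGFA is highest in the RelB-labelled group, and BHLHE40 is low in p50-knockout cells and high in the RelB-labelled group.

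Control 1 was the highest control for PFKFB4, ALDOC, P4HA1, NDRG1 and BNIP3L. Without it the log2 fold changes of these genes in the p50 and p52 knockouts were higher. Without control 3, p52 3 and RelA 2 together, 13 genes rose in p50-knockout cells, 17 in p52-knockout cells and 14 in the RelB-labelled group. Calls lost without those 3 libraries were LDHA, PGAM1 and ANKRD37 in the cRel-labelled group, LDHA, PGAM1 and KDM3A in p50-knockout cells, PKM and PGAM1 in p52-knockout cells, ALDOC, BNIP3L and PGK1 in RelA-knockout cells, and HK2, TPI1 and PFKFB4 in the RelB-labelled group.

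The knockouts were then compared with one another directly. In the test for any difference among the 5 knockouts 30 of the 36 genes passed (83.3%, against 78.8% of all genes). The exceptions were HK2, PGAM1, PDHA1, LDHB, ARNT and GAPDH. After ENO2, the smallest p belonged to BHLHE40, VEGFA, PFKFB4, ALDOC and ANKRD37.

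The RelA knockout and the RelB-labelled group differed in 24 genes (66.7%, against 67.2% of all genes), of which 20 were lower and 4 higher in RelA-knockout cells. All 9 of the other hypoxia-response genes were lower there. For ALDOC the difference was -1.62 on the log2 scale (SE 0.11, adjusted p = 1.2e-11), for ENO2 -1.38 (adjusted p = 9.9e-13) and for P4HA1 -1.29 (adjusted p = 2.8e-08). LDHA (0.33), PKM (0.26), HIF1A (0.16, adjusted p = 0.041) and PFKP (0.15, adjusted p = 0.046) were the 4 higher in RelA-knockout cells by limma. By edgeR and by DESeq2 2 genes were higher there, and HIF1A was not among them.

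The RelB-labelled group and the p52 knockout differed in 18 genes (50%, against 45.4% of all genes), 8 higher and 10 lower in the RelB-labelled group. BHLHE40 (0.96), VEGFA (0.76) and ANKRD37 (0.63) were higher in the RelB-labelled group. PFKFB4 (-0.99), PFKFB3 (-0.65), PDK3 (-0.49) and LDHA (-0.43) were lower in it. ALDOC, NDRG1, P4HA1 and PDK1 did not pass this test, with log2 differences of -0.15, -0.08, -0.10 and -0.04.

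The p50 and p52 knockouts differed in 10 genes (27.8%, against 22.2% of all genes). All 10 were lower in p50-knockout cells, and 0 were higher by limma, with 1 higher at an unadjusted p under 0.05 and 0 by edgeR and by DESeq2. The log2 differences were -0.83 for BHLHE40, -0.64 for ALDOC, -0.54 for PFKFB3 and -0.46 for NDRG1. PFKFB4 did not pass (-0.22, adjusted p = 0.18).

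The p50 knockout and the RelB-labelled group differed in 17 genes (47.2%, against 53.1% of all genes), 6 higher and 11 lower in p50-knockout cells. BHLHE40 had the widest gap at -1.80, followed by ANKRD37 (-1.07) and VEGFA (-0.93), while PFKFB4 was higher in p50-knockout cells (0.76). The RelA knockout and the cRel-labelled group differed in 4 genes (11.1%, against 11.0% of all genes), a count of 2 without cRel-labelled 2 and of 9 with only the groups compared in the fit. ALDOC (-0.45) and PFKFB4 (-0.45) were lower in RelA-knockout cells, and P4HA2 (0.73) and ANKRD37 (0.30) were higher.

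Further genes of the pathway came from separate lists. Of 7 glucose and lactate carriers 3 rose and 2 fell in the RelB-labelled group (against 33.1% and 34.7% of all genes), counts near those shares. In p50-knockout cells 1 rose and 3 fell (against 17.0% and 19.6%), and in p52-knockout cells 2 rose and 3 fell (against 24.5% and 26.4%). In the RelA and cRel-labelled groups 1 fell in each (against 2.63% and 1.92%). SLC2A3, the high-affinity glucose carrier GLUT3, was 211 ± 15.9 in the control and 2147 ± 258 in the RelB-labelled group, a 10.1-fold rise (adjusted p = 1.5e-14) and above that of any of the 36 genes. It was 311 ± 34.5 in p50-knockout cells (adjusted p = 0.0026), and it also rose in p52-knockout cells. SLC2A1, the general carrier GLUT1, was 2722 ± 191 in the control and fell in p50-knockout cells to 1885 ± 71.1 and in p52-knockout cells to 2224 ± 171 (adjusted p = 2.0e-05 and 0.0029), while in the RelB-labelled group it rose to 3146 ± 264 (adjusted p = 0.020). SLC16A1, which moves lactate, was 5084 ± 255 in the control and fell to 2811 ± 116 in the RelB-labelled group (adjusted p = 8.4e-12). SLC16A1 also fell in p52-knockout cells and in the cRel-labelled group. SLC16A3, the lactate exporter induced by HIF, was 1888 ± 246 in the control, rose to 2667 ± 278 in p52-knockout cells (adjusted p = 1.3e-04) and 2241 ± 166 in the RelB-labelled group (adjusted p = 0.021), and fell to 1329 ± 160.3 in RelA-knockout cells (adjusted p = 0.0015).

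Of 18 genes from the rest of glycolysis and its branch points, 4 fell in p50-knockout cells (against 19.6% of all genes, a share near it), 1 rose and 9 fell in p52-knockout cells (against 24.5% and 26.4%), and 3 rose and 8 fell in the RelB-labelled group (against 33.1% and 34.7%). TALDO1, transaldolase of the pentose phosphate branch, fell in the RelB-labelled group from 6455 ± 696 to 4138 ± 146 (adjusted p = 1.3e-07). Of 10 further genes of pyruvate dehydrogenase and its control, 1 rose and 3 fell in p50-knockout cells (against 17.0% and 19.6%), 2 rose and 5 fell in p52-knockout cells (against 24.5% and 26.4%) and 1 rose and 6 fell in the RelB-labelled group (against 33.1% and 34.7%). DLAT, a core subunit of the complex, fell in p52-knockout cells from 2888 ± 122 to 2138 ± 76.3 (adjusted p = 2.9e-06).

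Of 9 genes that make up or control HIF, 1 rose in p50-knockout cells (against 17.0% of all genes). In p52-knockout cells 3 rose and 1 fell (against 24.5% and 26.4%), and in the RelB-labelled group 1 rose and 4 fell (against 33.1% and 34.7%). In RelA-knockout cells 2 fell (against 2.63%), and in the cRel-labelled group 1 rose and 2 fell (against 4.17% and 1.92%). EPAS1, the alternative alpha subunit HIF-2 alpha, changed in 4 groups. It was 476 ± 131 in the control, 981 ± 196 in p52-knockout cells, 976 ± 111 in the RelB-labelled group, 770.5 ± 38.4 in the cRel-labelled group and 275 ± 43.1 in RelA-knockout cells. The first 3 were rises (adjusted p = 6.8e-06, 2.7e-06 and 0.0044) and the last a fall (adjusted p = 0.0031). In p50-knockout cells EPAS1 was 573 ± 55.6 (adjusted p = 0.14). CITED2, which competes with HIF for a coactivator, was 865 ± 39.6 in the control and fell to 399 ± 8.55 in the RelB-labelled group and 626 ± 41.6 in p52-knockout cells (adjusted p = 5.3e-11 and 4.3e-05). CITED2 also fell in the cRel-labelled group. VHL rose in the p50 and p52 knockouts. SIAH2 rose in p52-knockout cells and fell in the RelA and cRel-labelled groups. EGLN2, SIAH1 and EP300 fell in the RelB-labelled group.

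A list of 30 other hypoxia-response genes, 23 of them tested, was examined next. In p50-knockout cells 12 rose and 3 fell (against 17.0% and 19.6% of all genes), in p52-knockout cells 15 rose and 2 fell (against 24.5% and 26.4%), and in the RelB-labelled group 13 rose and 2 fell (against 33.1% and 34.7%). In RelA-knockout cells 2 rose and 4 fell (against 2.92% and 2.63%), and in the cRel-labelled group 1 rose and 1 fell (against 4.17% and 1.92%). The medians of the log2 fold changes were 0.37, 0.56, 0.53, -0.05 and 0.01 in that order. PPFIA4, a synaptic-scaffold gene induced by HIF, was 202 ± 74.8 in the control and rose to 574 ± 91.9 in p50-knockout cells and 667 ± 114 in p52-knockout cells (adjusted p = 1.3e-06 and 5.7e-08). HILPDA, a lipid-droplet gene induced by hypoxia, was 318 ± 25.4 in the control and rose 5.97-fold to 1918 ± 329.8 in the RelB-labelled group (adjusted p = 4.8e-12).

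**Figure D5:**
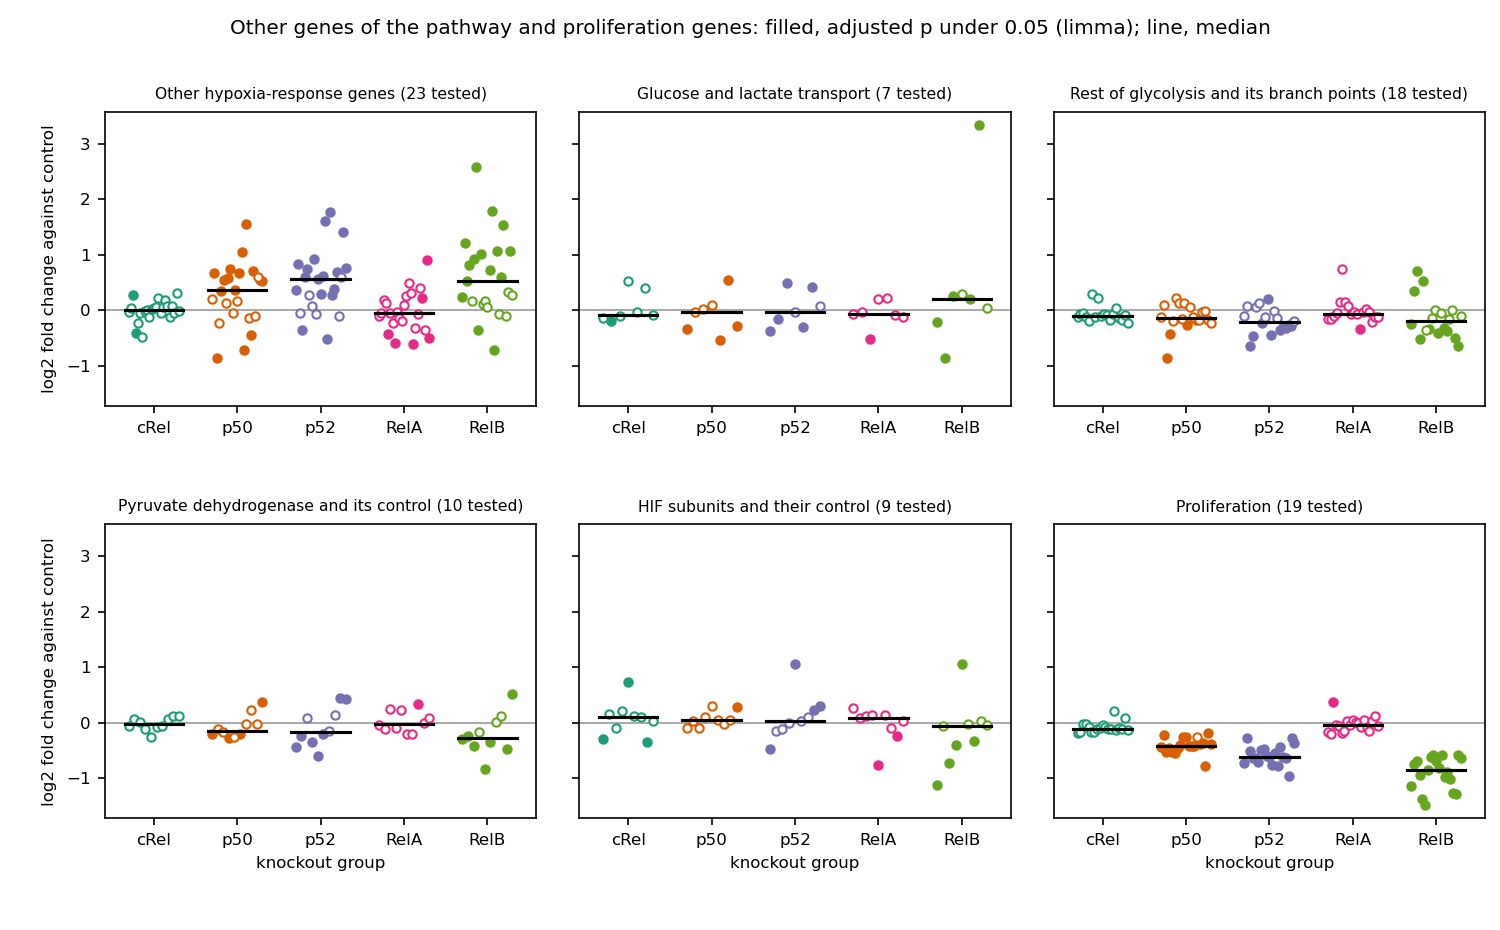
Log2 fold change against the control of the other listed genes (points, filled where the adjusted p was under 0.05 by limma) in each knockout group, with the list's median as a line. The medians of the other hypoxia-response genes lie above 0 in the p50, p52 and RelB-labelled groups, where those of the proliferation genes lie below 0.

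Several other measures moved with the same groups, and their part in these results was not tested. Of 19 proliferation genes, 18 fell in p50-knockout cells (against 19.6% of all genes), 19 in p52-knockout cells (against 26.4%) and 19 in the RelB-labelled group (against 34.7%), with median log2 fold changes of -0.41, -0.62 and -0.84. MYC was 7779.9 ± 382 in the control, 19785 ± 439 in the RelB-labelled group, 5827 ± 538 in p52-knockout cells and 5899 ± 233 in the cRel-labelled group, a rise in the first (adjusted p = 1.3e-11) and falls in the others (adjusted p = 3.9e-04 and 0.0060). The summed level of 6 monocyte markers was 520 to 545 in the controls, 830.0 to 907 in p50-knockout cells, 839 to 939 in p52-knockout cells and 932 to 1002 in the RelB-labelled group. Most of that sum was CSF1R and ITGAM. The sum of 7 T- and NK-cell markers was 698 to 770.4 in the RelB-labelled group and 412 to 556 in the controls, mostly NKG7. Cytosolic ribosomal-protein transcripts took 8.75% to 9.68% of reads in the RelB-labelled libraries and 6.07% to 7.41% in the controls. Their share was 7.03% to 7.96% in p50-knockout cells and 7.02% to 9.29% in p52-knockout cells, both overlapping the controls. It was 5.79% to 6.25% in RelA-knockout cells and 5.96% to 6.26% in the cRel-labelled group.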

How the data were processed

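Polyadenylated RNA of 18 GM12878 libraries was sequenced from directional libraries, in 6 groups of 3 taken from the sample titles. The submitters' processing notes name STAR 2.5.2b, featureCounts 1.5.1, DESeq2 1.14.1 and the build GRCh37. Which annotation release and strand setting were used is not given in the sources at hand, so overlapping and antisense genes cannot be told apart. The deposited signal is a normalised read count, that is, the authors' gene counts divided by 1 size factor per library. Multiplied back, 100% of 308790 values lay within 0.001 of a whole read (largest distance 7.06e-05). Recovered depth was 15.2 to 37.5 M reads (median 22.1 M), and 1 read was worth 0.646 to 1.46 units.

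Log2(value + 1) was tested two-sided with limma 3.58.1 (trend option) in 1 fit of all 18 libraries. The 12381 genes whose mean reached 10 were tested, and a Benjamini-Hochberg adjusted p below 0.05 made a call. Fold changes on this scale understate those of low genes. The limma fit was also run on simulated reads with changes only in the RelA libraries, and that result is not given here. Each knockout was compared with the control, 5 pairs of knockouts were compared directly, and a moderated F-test compared the 5 knockouts. The count tests edgeR 4.0.16 and DESeq2 1.42.0 on the recovered reads were alternatives, with 4588 and 4589 genes called in the p50 knockout against 4539 by limma. Their counts lay further apart where few genes were called. They were 671 and 795 against 687 in the RelA knockout and 814 and 928 against 754 in the cRel-labelled group. The other alternatives were the pseudocount, the filter, quantile normalisation, a replicate block, fitting only the groups compared and leaving out libraries.

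The replicate numbers were not used as pairs, since in none of the comparisons made did all 3 same-numbered libraries correlate above 0.1. Single pairs were higher, up to 0.40 for p52 3 and control 3. For 16 of the 18 libraries the highest correlation with another group was with a library of the same number. The low correlations therefore do not show that the numbers are unrelated, and a replicate block was run as an alternative. With it 834 genes were called in RelA-knockout cells and 940 in the cRel-labelled group, against 687 and 754 without it. Up to 4 called members per direction and knockout with the largest absolute log2 fold change are given in full, with the 6 smallest p of the F-test and the isoenzyme pairs, and from each other list up to 3 called genes with the smallest p per knockout. Other members are given where their role is described. The members and the lists were chosen with earlier results of these data known. Exon-union lengths came from GENCODE 29 by gene ID.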

Additional observations from a re-analysis of the deposited data

Results flagged for a closer look

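Some of the 36 genes moved in opposite directions against the shared control in a pair of groups, and the direct limma test of that pair also passed. HK1 was higher in the p52 knockout and lower in the RelB-labelled group (RelB-labelled minus p52 -0.31 on the log2 scale, adjusted p = 2.3e-04), and the p50 knockout stood above the RelB-labelled group in the same gene (0.33, adjusted p = 8.2e-05). ALDOC, PFKFB4 and BNIP3L fell in the RelA knockout and rose in the RelB-labelled group, with RelA minus RelB-labelled differences of -1.62 (adjusted p = 1.2e-11), -0.98 (adjusted p = 1.5e-07) and -0.81 (adjusted p = 8.3e-08). BHLHE40 fell in the p50 knockout and rose in the RelB-labelled group, with a p50 minus RelB-labelled difference of -1.80 (adjusted p = 2.3e-13). In each of these pairs all 3 libraries of one group lay above all 3 of the other.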

How the results depend on the processing

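The 32 named changes were recomputed under 512 alternatives. In 0 of them the direction reversed, in 78 the adjusted p was no longer under 0.05, and 18 of the changes kept their call in every alternative run. Calls were lost by 9 changes under quantile normalisation, 9 with only the groups compared in the fit, 9 without control 3, p52 3 and RelA 2 together (chosen after seeing the data), 4 by edgeR, 2 without the filter and 1 by DESeq2. Counts of genes that fell moved most. In the cRel-labelled group 4 became 2 without those 3 libraries. In the p50 knockout 4 became 1 under quantile normalisation, 1 with only the groups compared and 2 without those libraries. In the p52 knockout 3 became 0 under quantile normalisation and 0 with only the groups compared. In the RelA knockout 5 became 3 by edgeR, 11 by DESeq2, 3 with only the groups compared and 2 without those libraries, and the single rise became 0 with only the groups compared. RelA against cRel-labelled went from 4 to 9 with only the groups compared. Leaving out 1 library at a time gave 1 to 6 falls in the cRel-labelled group, 1 to 4 in p50, 0 to 5 in p52, 1 to 10 in RelA and 4 to 8 in RelB-labelled, rises of 10 to 13 in p50, 13 to 17 in p52, 0 to 1 in RelA and 13 to 15 in RelB-labelled, and 2 to 3 differences between RelA and cRel-labelled. Other than where fewer libraries or groups entered the fit, the cause was not tested.

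With a replicate block the 5 falls in the RelA knockout became 8, and the block ended none of the 32 named calls. For 16 of the 18 libraries the highest correlation was with 1 of the same number, which is a hint from the data and not from the design. EGLN3 and MIF had the lowest means of the 36 genes, under 100, where counting error is relatively widest.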

Other observations

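ERO1A, an endoplasmic oxidase induced by hypoxia that the table lists under its older symbol, was 4082, 3712 and 3209 in the controls and 4685, 5454 and 4645 in the p52 knockout, all above the controls (limma log2 fold change 0.43, adjusted p = 1.2e-04). It did not pass in any other group against the control.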
